A study of Mus musculus with 6 samples.

Results

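Mature olfactory sensory neurons (OSNs) in which a transgene drives the olfactory receptor (OR) *Olfr17* were compared with OSNs of a driver-only control, across all genes and at 2 stages. Each side of the comparison was 1 single-cell library, so effect sizes and detection are described and no difference was tested. Mature OSNs were cells with at least 1000 UMIs (unique molecular identifiers, each standing for 1 captured transcript), at least 500 genes, at least 10 *Omp* UMIs, more *Omp* than *Gap43*, at least 5 UMIs summed over *Cnga2*, *Adcy3* and *Gng13*, and fewer than 5 *Cyp2g1* UMIs. Immature OSNs passed the same depth limits and had at least 5 *Gap43* UMIs and more *Gap43* than *Omp*. The tetOP2 library held 671 mature and 386 immature OSNs and the gg8tTA control library 689 and 501, together 2247 OSNs of the 5356 cells kept from both libraries and of 24830 cells in the 6 libraries of the series.

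The tetOP2 library came from the main olfactory epithelium of mice carrying gg8-tTA and tetOP2iresGFP, and the control from mice carrying gg8-tTA alone. The driver expresses the tetracycline transactivator tTA from the *Gng8* promoter, which is active in the OSN lineage before full maturity, and both libraries carry it. The responder places the P2 receptor, *Olfr17*, and green fluorescent protein under a tetracycline-responsive promoter, and is the one stated difference between the genotypes. The comparison asks what the forced expression of 1 OR does to the identity of an OSN. Age, sex and the number of animals behind each library were not given in the sources used here. The other 4 libraries of the series, 2 swap and 2 control libraries of a separate experiment, served as a reference for levels, shares of cells and the distance between libraries.

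An OSN normally transcribes a single OR allele from a very large gene family, and the receptor that it makes feeds back to keep the other OR genes silent. The receptor protein also signals through cyclic AMP during development and so helps to set the level of axon guidance and adhesion molecules that sort OSN axons in the olfactory bulb. OR genes are used in zones of the epithelium that run from dorsal to ventral. P2 is a class II receptor of a zone that the paper groups with its dorsal zones.

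The libraries held 32005196 UMIs in 2563 barcodes (tetOP2) and 35298494 UMIs in 2793 barcodes (control), and every barcode passed the depth limits. Mature OSNs had a median of 11279 UMIs in the tetOP2 library and 12117 in the control, and immature OSNs 10204 and 10211. The labelled cell type was OSN, yet most cells of both libraries fell outside the OSN gates, among them 329 and 232 cells of a sustentacular gate (support cells with at least 10 *Cyp2g1* UMIs and fewer than 3 each of *Omp* and *Gap43*). Mature OSNs made up 26.2% and 24.7% of the kept cells, within the 15.4% to 28.7% of the other 4 libraries. Markers that the gates did not use bore out the stages: in mature OSNs the receptor transporter *Rtp1* stood at 888 and 783 CPM (counts per 1e6 UMIs of the summed cells) and the channel *Ano2* at 189.6 and 184.6 CPM. In immature OSNs *Stmn2*, a tubulin-binding protein of growing axons, stood at 3543 and 3397 CPM. Cells predicted as doublets were kept, 10 mature and 13 immature OSNs in the tetOP2 library and 24 and 12 in the control. The libraries shared 13 barcodes. *Xist* was detected at 1427 and 1370 CPM in mature OSNs, and the Y-linked *Ddx3y*, *Eif2s3y*, *Kdm5d* and *Uty* had 0 UMIs in both.

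*Olfr17* lies on mouse chromosome 7 in a cluster with its closest relatives. Its coding sequence of 948 bases sits in 1 exon at chr7:107097467-107098414 on the forward strand (mm10, GENCODE annotation). Among 1088 other OR proteins compared, the closest were *Olfr714* with 72.6% identical residues and *Olfr713* with 71.6%, the receptors P4 and P3, at chr7:107073830-107074783 and chr7:107036136-107037110. The identities fell to 58.1% for *Olfr95* and to 54.6% and 54.0% for *Olfr119* and *Olfr118*, all on chromosome 17. The stretch from coding base 301 to 390 shows how far the P-gene neighbours can be told apart, with capitals for bases that differ from *Olfr17*.
Olfr17: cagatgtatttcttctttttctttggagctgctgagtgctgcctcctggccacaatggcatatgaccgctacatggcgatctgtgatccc
Olfr714: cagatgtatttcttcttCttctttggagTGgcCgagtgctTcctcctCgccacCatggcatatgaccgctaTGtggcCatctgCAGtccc
Olfr713: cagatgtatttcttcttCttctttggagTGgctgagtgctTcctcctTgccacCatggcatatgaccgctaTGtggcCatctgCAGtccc
*Olfr714* differed from *Olfr17* at 13 of these 90 bases and *Olfr713* at 12, and the longest run shared by the whole coding sequences was 26 bases for each. All 5 relatives had 0 UMIs in the mature OSNs of both libraries. Transcripts of the transgene and of the endogenous *Olfr17* gene are counted under the same name and cannot be told apart in these counts.

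*Olfr17* was the most abundant OR of the tetOP2 library. In mature OSNs it had 38428 UMIs (4949.7 CPM; 95% interval 4900.3 to 4999.4, Poisson, exact) in the tetOP2 library against 105 UMIs (12.1 CPM; 9.90 to 14.7) in the control. The ratio was 409-fold, or 8.68 on the log2 scale (8.40 to 8.97). In immature OSNs it had 8101 UMIs (1919 CPM) against 37 UMIs (6.94 CPM), a ratio of 8.11 on the log2 scale (7.65 to 8.62). *Olfr17* supplied 59.1% of all OR UMIs in mature and 52.6% in immature OSNs of the tetOP2 library. In the other 4 libraries the mature level ran from 0 to 33.9 CPM, so the control was within their range. Intervals here and throughout cover counting error only, not the spread between animals or libraries.

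Expression per cell was bimodal in the tetOP2 library. Of its 671 mature OSNs, 187 held 100 or more *Olfr17* UMIs and 182 held 30 to 99. Few lay between, with 7 cells at 10 to 29 and 13 at 3 to 9, while 153 held 1 or 2 and 129 held none. At least 10 UMIs were found in 56.0% of mature OSNs (52.2% to 59.8%, exact binomial) and in 40.7% of immature OSNs (35.7% to 45.8%), against 1 of 689 and 1 of 501 cells in the control.

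Low counts were also found in cells that should lack an OR. In the tetOP2 sustentacular gate, whose cells had a median of 13390 UMIs, 57.8% had at least 1 *Olfr17* UMI but 1 of 329 cells had 10 or more. In the control, 0 of 232 sustentacular cells had one, which allows a share of cells with a UMI of up to 1.29% (3 cells of 232). With every cell thinned to 3000 UMIs, at least 1 *Olfr17* UMI was found in 63.8% of mature, 53.4% of immature and 16.1% of sustentacular cells of the tetOP2 library, against 80.8%, 70.7% and 57.8% as deposited. Counts of 1 or 2 in an OSN of the tetOP2 library are therefore within the background measured in sustentacular cells, and are not read as expression.

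**Figure D1:**
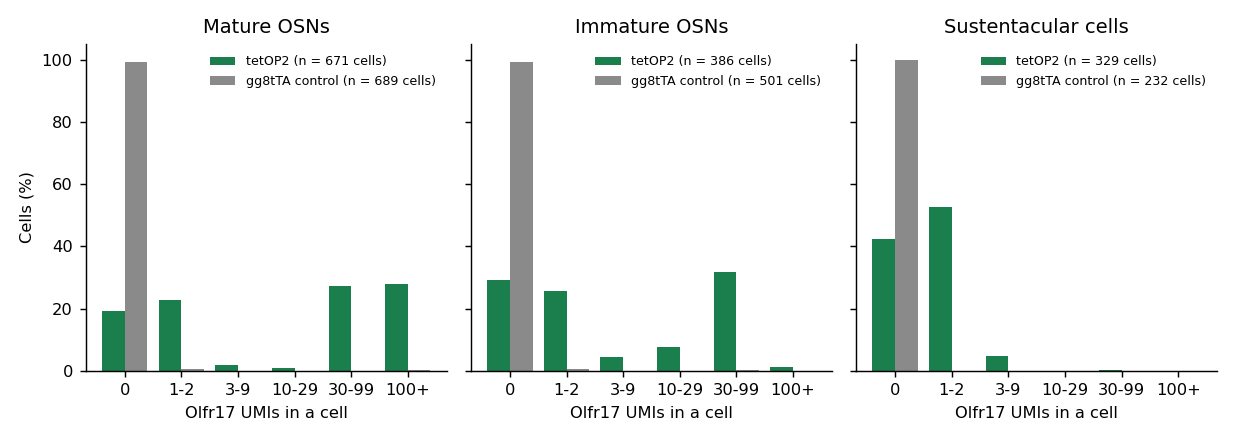
Percent of cells in each class of Olfr17 UMI count (x axis) for mature OSNs, immature OSNs and sustentacular cells of both libraries. In the tetOP2 library 187 mature OSNs hold 100 or more UMIs and 129 hold none, with few cells between 3 and 29, while sustentacular cells stay almost wholly at 0 to 2 and control OSNs at 0.

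The immature OSNs of the tetOP2 library were split by their count of *Omp*, the marker of maturity. At least 10 *Olfr17* UMIs were found in 33.3% (22.9% to 45.2%) of the 75 cells without an *Omp* UMI, in 38.7% (32.1% to 45.6%) of the 212 cells with 1 to 4, and in 50.5% (40.3% to 60.7%) of the 99 cells with 5 or more. The intervals of all 3 classes overlap.

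Each cell was assigned the OR gene with the most UMIs, and ties or cells without any were left unassigned. *Olfr17* was the chosen OR in 386 of 671 mature OSNs of the tetOP2 library (57.5%; 53.7% to 61.3%) and in 1 of 689 in the control. In immature OSNs it was chosen in 178 of 386 (46.1%; 41.1% to 51.2%) and in 1 of 501. An OR could be assigned in 97.8% of mature tetOP2 OSNs (96.3% to 98.7%) and in 91.7% of control OSNs (89.4% to 93.7%), where the other 4 libraries lay between 91.8% and 95.01%. In immature OSNs the shares were 89.6% and 72.5%, against 80.2% to 82.2% in the other 4. In sustentacular cells, by the same rule, 50.2% of tetOP2 and 28.0% of control cells were assigned, 34.7% of the tetOP2 cells to *Olfr17*, so the step from 1 UMI has a large background. An OR of at least 3 UMIs was present in 5.47% and 0.862% of those cells.

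**Figure D2:**
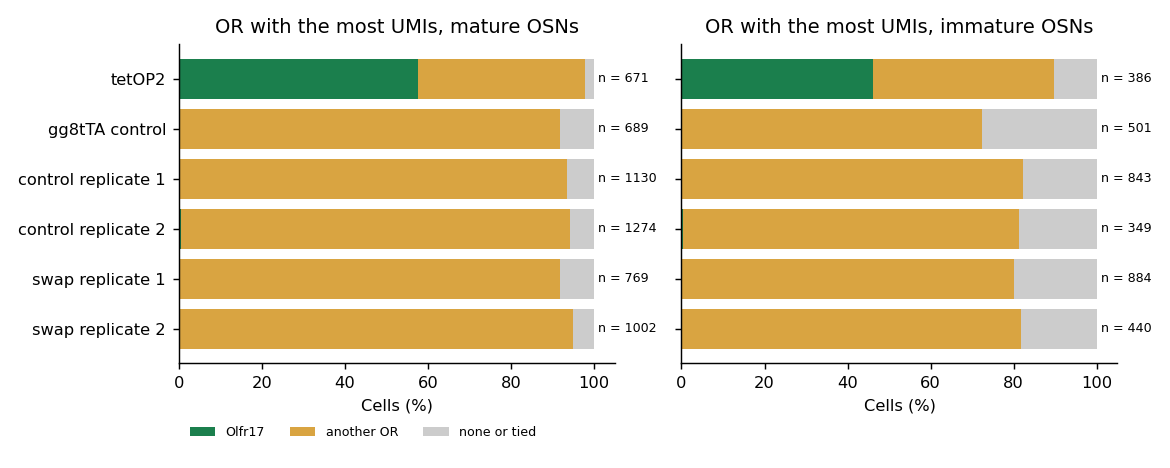
Percent of cells whose most abundant OR is Olfr17, another OR, or none or tied, in mature and immature OSNs of all 6 libraries. Olfr17 is chosen in 57.5% of mature and 46.1% of immature OSNs of the tetOP2 library and in at most 0.471% of mature OSNs elsewhere.

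The amount of receptor transcript in a mature OSN lay in the same range whichever OR it chose. Mature OSNs choosing *Olfr17* held a median of 98 *Olfr17* UMIs (quartiles 76 and 123.75), other OSNs of the tetOP2 library 80.5 UMIs of their chosen OR (47 and 127) and control OSNs 90 (52 and 133). The lone control cell choosing *Olfr17* held 101 UMIs. The 4 and 6 such cells of the 2 control libraries of the other experiment had medians of 62 and 109.5. In immature OSNs the medians were 47 for *Olfr17* and 29 for another OR in the tetOP2 library, and 31 in the control, so there the *Olfr17* cells had the higher count.

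Most OR transcripts of a cell came from its chosen OR in every group. Mature cells choosing *Olfr17* held a median of 1 UMI of all other ORs together, and 172 of 386 held none. The chosen OR made up a median of 99.3% of the OR UMIs in these cells, 98.2% in the other assigned cells of that library and 97.9% in control cells with another OR. A second OR of at least 3 UMIs was present in 6 of 386 *Olfr17* cells (1.55%; 0.573% to 3.35%), in 23 of 270 cells with another OR (8.52%; 5.48% to 12.5%) and in 43 of 631 control cells (6.81%; 4.98% to 9.07%). The interval of the *Olfr17* cells does not reach those of either comparison group. In immature OSNs a second OR was present in 12 of 178 (6.74%), 29 of 168 (17.3%) and 31 of 362 cells (8.56%). In tetOP2 cells choosing another OR, *Olfr17* itself can be the second OR. At least 3 *Olfr17* UMIs were found in 5.17% of sustentacular cells of that library, a background that *Olfr17* cells cannot show as a second OR. Cells predicted as doublets were also kept. The part of this background and of doublets in these shares was not tested.

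Summed over all ORs, transcript levels of the libraries were close, with *Olfr17* in place of most other OR transcripts in the tetOP2 library. All OR genes together reached 8381 CPM in mature tetOP2 OSNs and 7653 CPM in the control, and without *Olfr17* 3431 and 7641 CPM. Per mature OSN thinned to 3000 UMIs the median was 25 OR UMIs against 21, and 1 against 21 without *Olfr17*.

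The ORs chosen by the cells that did not choose *Olfr17* were about as varied as in the control. The 270 such cells of the tetOP2 library chose 220 different ORs, and 270 cells drawn from the control chose 222.55 on average. Over all assigned cells the numbers in 632 cells were 214.47 and 421. No OR other than *Olfr17* was chosen by more than 4 mature tetOP2 cells or more than 6 control cells, and 178 and 281 ORs were chosen by a single cell. The libraries had 114 of these ORs in common, 51.8% of the 220 in the tetOP2 library and 27.1% of the 420 in the control. Class I ORs, the group of ORs related to those of fish and used in the dorsal zone, were chosen by 38 of 270 cells (14.1%; 10.2% to 18.8%) and 83 of 631 (13.2%; 10.6% to 16.0%), against 10.2% to 11.6% in the other 4 libraries.

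Differences at single OR genes rested on few cells. Of 447 OR genes and pseudogenes with at least 50 UMIs over both libraries in mature OSNs, 88 were at least 2-fold higher and 284 at least 2-fold lower in the tetOP2 library, and in 80 and 236 of these a single cell gave at least 50% of the UMIs. Among the higher ORs other than *Olfr17*, the interval of *Olfr1254* lay farthest from a ratio of 1, with 416 UMIs, 3 choosing tetOP2 cells and 0 UMIs in the control. *Olfr285* was chosen by 1 cell, and *Olfr610*, *Olfr728* and *Olfr745* by 2 each. *Olfr672* had 1876 UMIs and 5 choosing cells in the control and 0 UMIs in the tetOP2 library. *Olfr170* was chosen by 4 control cells and *Olfr1320*, *Olfr1176* and *Olfr181* by 3 each, all with 0 UMIs in the tetOP2 library.

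Across all genes, few others stood apart in mature OSNs. Of 11033 genes with at least 50 UMIs, 145 (1.31%) were at least 2-fold higher and 520 (4.71%) at least 2-fold lower in the tetOP2 library, and 2.42% and 8.39% were past 1.5-fold. Without ORs these were 57 and 236 of 10586. The median log2 ratio of all genes was -0.03. For scale, control replicate 1 and control replicate 2 of the other experiment were 2-fold apart at 1397 of 12047 genes (11.6%, either direction). Over all genes, 2 libraries of 1 genotype thus differed at a larger share than this pair (6.03%). The count for the replicates was not split into ORs and other genes, so it gives no scale for the other genes alone.

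**Figure D3:**
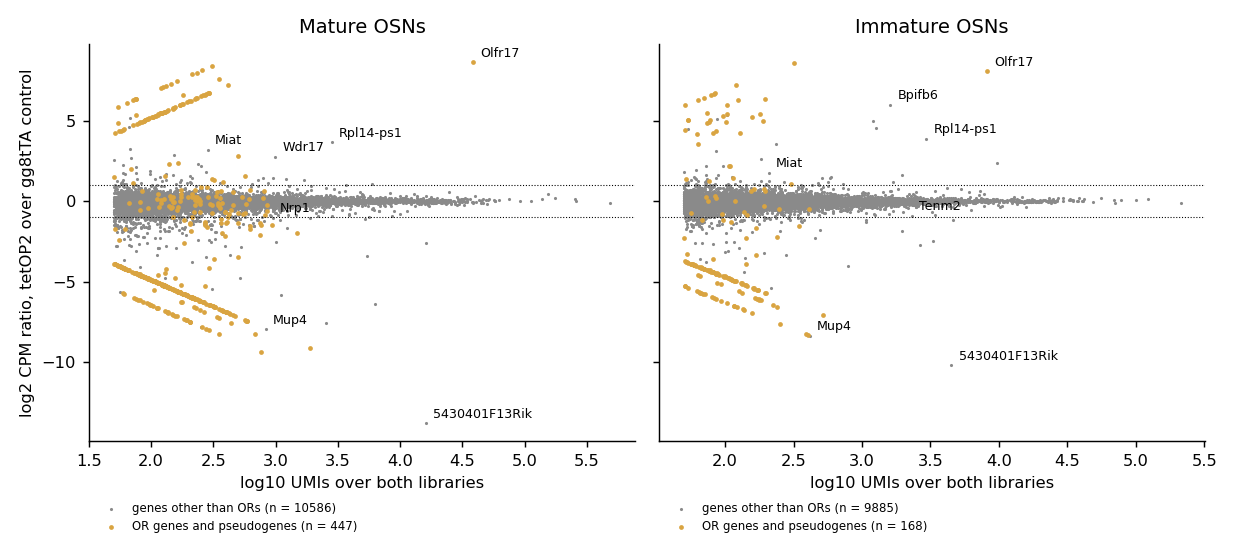
log2 ratio of CPM, tetOP2 over control (y axis), against the log10 of the UMIs over both libraries (x axis) for every gene with at least 50 UMIs in mature and immature OSNs, ORs in a colour of their own and dotted lines at 2-fold. Olfr17 lies at 8.68 and 8.11 with far more UMIs than other ORs of high ratio, 5430401F13Rik lies lowest in both panels, and most genes with many UMIs lie near 0.

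Genes other than ORs that were higher in mature tetOP2 OSNs were led by a pseudogene and a noncoding RNA, and several were as high in cells that had chosen another OR. *Rpl14-ps1*, a pseudogene of the ribosomal protein gene *Rpl14*, stood at 334 CPM against 26.4, a log2 ratio of 3.66 (3.47 to 3.86), and was found in 644 and 195 cells. Its level was 344 CPM in cells choosing *Olfr17* and 322 CPM in the other cells of the library, and 1.34 to 1.76 CPM in the other 4 libraries, where even the control of this pair lies outside. The gene *Rpl14* itself stood at 972 and 1076 CPM. How reads were assigned between this gene and its processed copy was not tested. *Miat*, a long noncoding RNA, stood at 32.8 CPM against 3.57 (3.20; 2.66 to 3.79), with 30.02 CPM in *Olfr17* cells and 36.5 in the others.

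Protein-coding genes were also among the leading higher genes. *Wdr17*, which codes for a WD-repeat protein, stood at 110 CPM against 16.0 (2.78; 2.52 to 3.05), with 116 CPM in *Olfr17* cells and 103 in the others, and the other 4 libraries at 16.7 to 30.7. *Fut10*, a fucosyltransferase, stood at 17.0 CPM against 2.31 (2.88; 2.20 to 3.64), but at 13.6 to 21.9 CPM in the other 4 libraries, so here the control was the library apart. *Car11*, a carbonic anhydrase-related protein, stood at 86.8 CPM against 32.3 (1.43), and *Wdfy1*, an endosomal adaptor, at 109 against 41.7 (1.38), the latter with 48.0 to 258 CPM in the other 4 libraries. *C230079O03Rik*, named only by its clone, stood at 26.3 CPM against 5.77 (2.19). The calcium-binding protein gene *Cabp2* was found in only 19 and 16 cells (27.1 and 7.61 CPM), and without the cells choosing *Olfr17* its log2 ratio turned from 1.83 to -3.11. For *Rgs5*, a marker of pericytes, 1 cell gave 44.6% of the UMIs, and without the 5 highest cells of each library the log2 ratio was 0.65 in place of 2.29. *Fabp7*, a gene of olfactory ensheathing glia, stood at 71.5 and 26.6 CPM in the gate and at 953 and 481 CPM outside both gates.

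The genes lower in mature tetOP2 OSNs were led by *5430401F13Rik* and by secreted proteins known from glands of the nose. The first, named only by its clone, had 1 UMI against 16033, a log2 ratio of -13.81 (-19.11 to -11.33) for *5430401F13Rik*. It was found in all 689 control cells, stood at 18373 CPM in control cells outside the gates and lay between 0 and 51.5 CPM in the other 4 libraries. *Mup4*, a major urinary protein, had 0 UMIs in the tetOP2 library and 836 in the control, in 442 cells, with 2419 CPM outside the control's gates. *Bpifb9b*, of the BPI-fold family of secreted proteins, had 1 UMI against 251 and 2102 CPM outside the gates of the control. The same held more widely: of the 236 genes other than ORs that were 2-fold lower, 196 (83.1%) had a higher level outside the gates than inside, against 40.9% of all genes. Among the 57 higher genes the share was 50.9%, against 44.0%. *Mup4* stood at 96.4 CPM in the control and at 0 to 5.77 CPM in the other 4 libraries. *Bpifb9b* stood at 28.9 CPM in the control and at 0.0586 to 2.24 CPM in the other 4. The tetOP2 library lay within these ranges, also for *5430401F13Rik*, so for these genes the control was the library apart.

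Several of these lower genes rested on 1 control cell. One cell gave 84.6% of the control UMIs of *Gm14744*, 80.1% of the lipocalin *Lcn11*, and 74.9% and 84.5% of the secretoglobins *Scgb2b27* and *Scgb1b27*. A single cell also gave 94.1% of *Eln* (elastin), 94.4% of *Cytl1* and 91.4% of *Col8a1*, a collagen. Without the 5 highest cells of each library their log2 ratios remained negative, from -1.71 for *Cytl1* to -5.81 for *Gm14744*. Some then rested on few UMIs, under the minimum of 50: 0 against 11 for *Cytl1*, 0 against 25 for *Scgb1b27* and 1 against 14 for *Col8a1*. For *5430401F13Rik*, 1 cell gave 52.7% of the control UMIs. Without the 5 highest cells it had 7472 UMIs left in the control against 0. *Lcn11* stood at 714 CPM in the control and *Gm14744* at 293, against 0 to 12.4 and 0 to 3.02 CPM in the other 4 libraries. The tetOP2 library lay within these ranges, at 8.37 and 1.55 CPM. For *Eln*, *Cytl1* and *Col8a1* both libraries of the pair lay above the range of the other 4. The part of RNA from other cells in these differences was not tested.

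In immature OSNs fewer genes stood apart. Of 10053 genes, 97 (0.965%) were at least 2-fold higher and 235 (2.34%) at least 2-fold lower in the tetOP2 library, and 2.75% and 5.37% were past 1.5-fold. Of 168 OR genes and pseudogenes, 36 were higher and 116 lower, and of the 9885 other genes 61 were higher and 119 lower. Among the leading higher genes, *Rpl14-ps1* and *Miat* were not carried by a single cell. *Rpl14-ps1* stood at 644 CPM against 43.4 (3.89; 3.70 to 4.09), and *Miat* stood at 36.0 against 10.5 CPM (1.78; 1.33 to 2.25). Others took most of their UMIs from 1 tetOP2 cell: 96.9% for *Bpifb6*, 98.0% for *Gpx6* and for *Ces1a*, 94.6% for *Bpifb4*, 88.0% for *Bpifa1*, 95.4% for *Tff2* and 84.5% for *Reg3g*.

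Several of the leading lower genes of immature OSNs were the same as in mature OSNs, among them *5430401F13Rik*, *Mup4*, *Bpifb9b*, *Gm14744* and *Lcn11*. *5430401F13Rik* had 0 UMIs against 4503 and was found in all 501 control cells. *Mup4* had 1 UMI against 416, *Bpifb9b* 1 against 156, *Gm14744* 4 against 213 and the odorant-binding protein *Obp2b* 5 against 132. The lipocalins *Lcn11* and *Lcn3* stood at 8.77 against 142 CPM and 4.74 against 48.6 CPM. *Col1a1* stood at 66.1 against 442 CPM with 52.3% of the control UMIs in 1 cell, *Krt15* at 2.13 against 24.6 and *Chil6* at 3.55 against 33.4 CPM, with 50.4% and 79.2% in 1 cell. The other 4 libraries lay at 0 to 22.6 CPM for *Lcn11*, 0.341 to 10.2 for *Lcn3* and 0.183 to 6.02 for *Obp2b*. For *Col1a1* they lay at 3.07 to 222 CPM. These ranges held the tetOP2 library but not the control. For *Krt15* both lay within the range, 0 to 50.2 CPM.

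The stages had part of these genes in common. Of the 9583 genes other than ORs that were measured in both, 14 were 2-fold higher at both stages, which is 46.7% of the 30 higher in mature and 31.1% of the 45 higher in immature OSNs. For lower genes 43 were shared, 29.5% of 146 and 41.0% of 105. Both stages come from the same 2 libraries.

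In mature OSNs no measured gene of odor signal transduction or of cilia lay 1.5-fold apart, where 8.39% of all genes were lower and 2.42% higher. The signalling list held 15 measured genes, of which the gates use *Omp*, *Cnga2*, *Adcy3* and *Gng13*, and the other 11 had a median log2 ratio of 0.00. The olfactory G protein subunit *Gnal* stood at 1641.1 CPM in both libraries, and the channel subunit *Cnga4* at 307 and 325. Among 7 genes of OR trafficking, *Rtp1* and *Rtp2* (476 and 453 CPM), which carry ORs to the cell surface, were close, and only *Reep5* was lower (9.27 against 25.8 CPM; -1.48), a level at which the other 4 libraries lay (6.54 to 11.6). None of 28 genes of cilia and intraflagellar transport passed 1.5-fold. In immature OSNs, 2 of the 15 signalling genes were lower and none higher, against 5.37% of all genes lower and 2.75% higher. The 2 were *Stoml3* (5.21 against 12.8 CPM; -1.29) and the phosphodiesterase *Pde1c* (-0.63).

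Genes of OR choice and its feedback were also close. In mature OSNs none of the 12 measured choice factors, none of 20 heterochromatin genes and none of 23 genes of endoplasmic reticulum stress passed 1.5-fold. Their medians were -0.06, -0.02 and -0.12. The shares over all genes were 8.39% lower and 2.42% higher in mature OSNs, and 5.37% and 2.75% in immature OSNs. *Lhx2*, which binds OR enhancers, stood at 812 and 762 CPM, its partner *Ldb1* at 40.3 and 37.6, and *Ebf1* at 399 and 377. *Atf5*, the transcription factor of the receptor feedback, stood at 3553 and 3397 CPM, and the chaperone *Hspa5* at 258 and 282. In immature OSNs, 1 of these 3 lists held a gene past 1.5-fold: *Ddit3*, a stress-induced transcription factor, at 137 against 208 CPM (-0.60; -0.74 to -0.45).

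Several axon guidance and adhesion genes were lower in the tetOP2 library, and most of these were lowest in its cells choosing *Olfr17*. In mature OSNs 4 of 23 guidance genes were at least 1.5-fold lower and none higher (median -0.26), against 8.39% of all genes lower and 2.42% higher. Over all genes lower ratios were thus the more common. *Nrp1*, a receptor for semaphorins whose level differs between OSNs of different ORs, stood at 37.4 CPM against 76.5 (-1.03; -1.24 to -0.83), both below the 87.7 to 113 CPM of the other 4 libraries. Within the tetOP2 library it stood at 11.5 CPM in the 386 cells choosing *Olfr17* and at 70.6 in the others. The other 285, with another or no chosen OR, had a log2 ratio to the control of -0.12 (-0.34 to 0.10), and *Olfr17* cells were at -2.74 (-3.19 to -2.32). The adhesion molecule *Tenm2* stood at 171 against 293 CPM (-0.77), split into 111 and 249 CPM, and *Tenm4* at 23.2 against 39.4 (-0.77), split into 14.9 and 33.8. *Robo2*, a receptor for Slit proteins, stood at 44.8 against 69.0 CPM (-0.62), split into 35.3 and 57.1.

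Of 9 adhesion genes linked to the sorting of OSN axons into glomeruli, 2 were at least 1.5-fold lower in mature OSNs and none higher (median -0.03), against 8.39% of all genes lower and 2.42% higher. *Kirrel3*, a homophilic adhesion protein, stood at 31.8 against 53.7 CPM (-0.76), split into 19.9 CPM in *Olfr17* cells and 47.1 in others. *Pcdh7*, a protocadherin, stood at 15.5 against 24.1 CPM (-0.64), split into 5.27 and 28.5. *Kirrel2* was higher by less than the limit, at 112 against 86.0 CPM (0.38). In immature OSNs the protocadherins *Pcdh19* (80.8 against 42.04 CPM; 0.94) and *Pcdh17* (90.5 against 160 CPM; -0.83) lay apart in opposite directions. Of 21 guidance genes *Tenm2* (163 against 304 CPM; -0.90), *Epha5* (-1.13) and *Slit1* were lower in immature OSNs and none higher. Of all genes, 5.37% were lower and 2.75% higher at that stage. *Nrp1* was among those within 1.5-fold there.

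**Figure D4:**
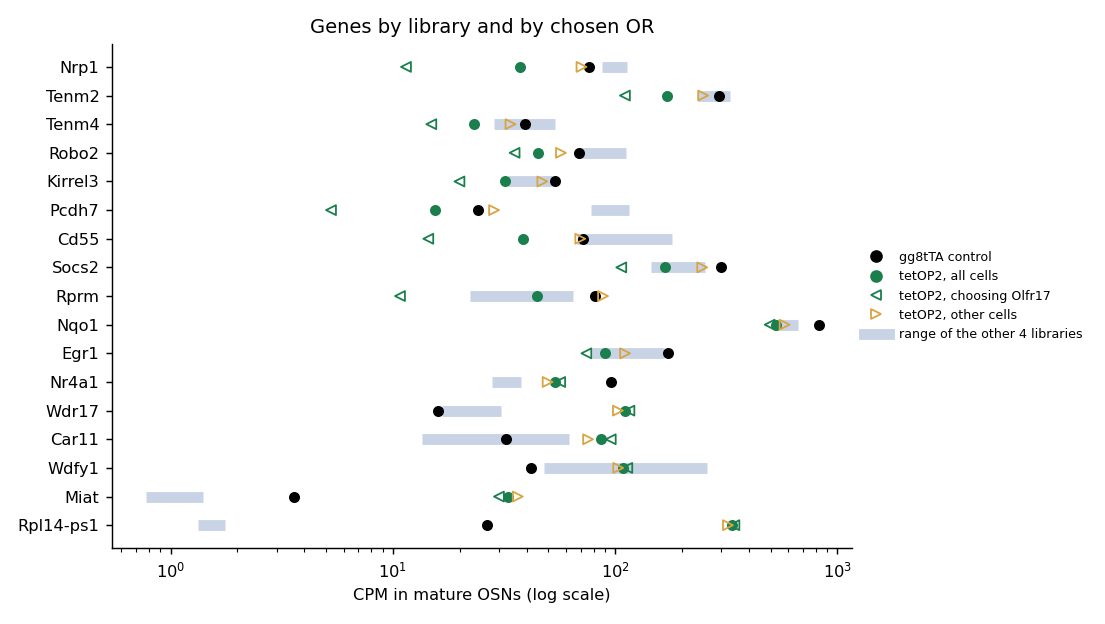
CPM in mature OSNs (log scale) of genes named in the text for the control library, the tetOP2 library, its cells choosing Olfr17 and its other cells, over a pale bar for the range of the other 4 libraries. Nrp1, Pcdh7, Cd55 and Rprm are low in the Olfr17 cells and near the control in the others, while Wdr17, Miat and Rpl14-ps1 are high in both.

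Markers of the dorsal zone were lower in the tetOP2 library than in the control of this pair, and most markers of the ventral zones were close. Of 7 dorsal markers, 4 were at least 1.5-fold lower in mature OSNs and none higher (median -0.62), against 8.39% of all genes lower and 2.42% higher. The dorsal marker *Nqo1*, a quinone reductase, stood at 532 against 824 CPM (-0.63), with 496 CPM in *Olfr17* cells, 579 in the others and 552 to 667 in the other 4 libraries. The control lay above that range and the tetOP2 library just below it. *Cd55*, a regulator of complement, stood at 38.6 against 71.6 CPM (-0.89) and *Socs2*, an inhibitor of cytokine signalling, at 168 against 299.8 (-0.84). For *Cd55* the *Olfr17* cells had 14.4 CPM and the others 69.7, and for *Socs2* 107 and 246. *Robo2* is also on this list. In immature OSNs none of the 7 passed 1.5-fold, with a median of -0.31, against 5.37% of all genes lower and 2.75% higher.

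Of 10 ventral markers, 2 were lower and none higher in mature OSNs (median 0.12), against 8.39% of all genes lower and 2.42% higher. *Rprm* stood at 44.7 against 81.0 CPM (-0.86), with 10.8 CPM in *Olfr17* cells and 88.2 in the others, and the peptide gene *Avp* at 9.15 against 18.6 (-1.02). The transcription factors *Nfia* (31.8 and 22.6 CPM), *Nfib* (102 and 92.7) and *Nfix* (354 and 258), which are more abundant in ventral OSNs, were higher by less than 1.5-fold. *Ncam2* stood at 51.5 and 49.4 CPM and *Cidea* at 157 and 125. In immature OSNs 1 of 9, *Ifi27*, was higher and none lower, against 2.75% of all genes higher and 5.37% lower.

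Shares of cells with a UMI were lower for the dorsal markers too. Thinned to 3000 UMIs, *Nqo1* was found in 25.8% of mature tetOP2 OSNs (22.5% to 29.3%) and 34.5% of control OSNs (31.0% to 38.2%), and *Acsm4*, another dorsal gene, in 27.4% and 36.4%. By choice, *Nqo1* was found in 24.6% of the *Olfr17* cells, 27.4% of tetOP2 cells with another OR (22.2% to 33.1%) and 35.0% of control cells with another OR (31.3% to 38.9%). *Ncam2* was found in 13.7% and 11.3% and *Cidea* in 29.2% and 24.1%. As deposited, *Nqo1* was found in 34.7% and 44.7% of OSNs, in 37.6% to 42.7% in the other 4 libraries, and in 20.4% and 27.6% of sustentacular cells. The sustentacular share was thus also lower in the tetOP2 library. The part of background in these shares was not tested. In the 2 control libraries of the other experiment *Nqo1* was found in 37.6% and 37.8% of OSNs and *Acsm4* in 38.1% and 37.0%. The gg8tTA control lay above both of them for both genes. The tetOP2 library lay below them for *Nqo1* and above them for *Acsm4* (43.5%). The highest shares of the other 4 were those of swap libraries. A dorsoventral score per cell, the mean standardised level of 5 ventral genes minus that of 4 dorsal genes, had a median of 0.276 (SD over cells 0.924) in the tetOP2 library and -0.0280 (SD 0.978) in the control. The quartiles were -0.568 and 0.828 in the tetOP2 library and -0.847 and 0.524 in the control. Within the tetOP2 library the median was 0.276 in cells choosing *Olfr17* and also in cells choosing another OR. Many cells shared 1 value of the score, among them 48 control cells with another OR at -0.03 and 25 *Olfr17* cells at 0.28. How the score relates to the part of the epithelium sampled was not tested.

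**Figure D5:**
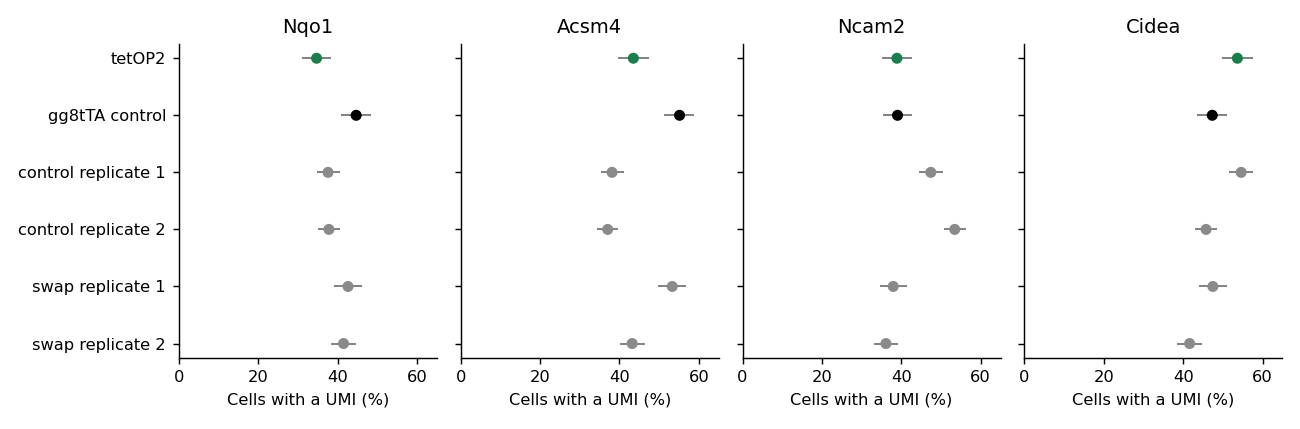
Percent of mature OSNs with at least 1 UMI of the dorsal genes Nqo1 and Acsm4 and the ventral genes Ncam2 and Cidea in each of the 6 libraries, as deposited (points, with exact 95% binomial intervals as lines). Nqo1 is found in 34.7% of tetOP2 and 44.7% of control OSNs and Acsm4 in 43.5% and 55.2%, with the other 4 libraries at 37.6% to 42.7% and 37.0% to 53.3%. The upper ends of both ranges are those of a swap library.

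Genes that respond to neuronal activity were partly lower in mature tetOP2 OSNs and partly higher in immature ones. Of 18 measured, 4 were at least 1.5-fold lower in mature OSNs and none higher (median -0.32), where 8.39% of all genes were lower and 2.42% higher. They were *Egr1* at 90.3 against 173 CPM (-0.94), *Nr4a1* at 53.6 against 95.8 (-0.84), *Fosb* at 45.5 against 76.1 (-0.74) and *Egr2* (-1.03), all transcription factors of the immediate early response. *S100a5*, an OSN gene that tracks odor stimulation, stood the other way at 10892 against 8044.4 CPM (0.44). *Egr1* stood at 74.3 CPM in *Olfr17* cells and 111 in the others, and at 78.8 to 166 in the other 4 libraries. In immature OSNs 5 of 18 were higher, against 2.75% of all genes, among them *Nr4a2* (28.2 against 11.8 CPM; 1.25) and *Junb* (0.63), and *Egr2* was lower (-0.93). Immediate early genes also respond to cell dissociation. Of 11 heat shock and dissociation genes *Hspa1a* and *Hspa1b* were at least 1.5-fold lower in mature OSNs and none higher (median -0.05). The part of dissociation in these differences was not tested.

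Few genes of maturity and survival lay 1.5-fold apart, as was true of all genes. Over all genes 8.39% were lower and 2.42% higher in mature OSNs, and 5.37% and 2.75% in immature OSNs. Of 14 mature neuron genes 4 are used by the gates, and of the other 10 the cytochrome P450 *Cyp4v3* was lower (-1.45) and none higher, and of 17 immature neuron genes *Cd24a* (-1.33) and *Tubb2b* (-0.60) were lower in mature OSNs. None of the 17 passed 1.5-fold in immature OSNs. Of 15 genes of apoptosis and p53 1 was higher in mature OSNs, the pro-apoptotic *Bbc3*, at 35.2 against 20.6 CPM (0.77), and none was lower. In immature OSNs none of the 15 passed. Of 7 interferon genes 1 was lower in mature OSNs, and of 5 in immature OSNs 1 was higher. Of the ribosomal protein genes and pseudogenes, 94 measured in mature OSNs, *Rpl14-ps1* was the 1 higher and 2 were lower. Fewer cells of a kind and less RNA per cell cannot be told apart in the summed levels.

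Markers of other cell types lay apart in both directions inside the OSN gates. Of all genes, 8.39% were at least 1.5-fold lower and 2.42% higher in mature OSNs, and 5.37% and 2.75% in immature OSNs. In mature OSNs all 5 measured horizontal basal cell genes (keratins and others) and all 5 fibroblast genes were at least 1.5-fold lower in the tetOP2 library, with summed levels of 32.7 against 85.0 CPM and 904 against 1475 CPM. The 10 measured gland genes had 2 higher and 6 lower, at 106 against 247 CPM in the gate and 2319 against 8199 CPM outside it. Neutrophil genes had 4 of 6 higher and 1 lower (179 against 116 CPM), and ensheathing glia genes 2 of 4 higher and 1 lower (94.8 against 48.5). B lineage genes had 4 of 4 higher (33.5 against 16.7), but in immature OSNs 1 of 2 was lower and none higher. Erythroid genes had 1 of 5 higher and 4 lower in mature OSNs (287 against 264 CPM). Sustentacular genes had 1 of 11 lower in mature OSNs (339.8 against 388 CPM), while in immature OSNs, whose gate has no limit on *Cyp2g1*, 5 of 11 were higher, with 1602 against 1099.7 CPM in sum. Their part in the gene differences given above was not tested.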

How the data were processed

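Single-cell libraries were made with the 10x Genomics v3 kit from papain-dissociated main olfactory epithelium. The GEO design text speaks of sorted cells, while the methods describe no sort for these libraries. The authors aligned reads with Cell Ranger to mm10, introns included, and the deposited files hold raw UMI counts per gene and cell barcode. The files of this pair name no software version. Barcode sets of this pair differ from those of the other 4 libraries, and no ratio was taken between this pair and those.

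From the counts, cells were gated as described and UMIs summed over the cells of a gate, scaled to CPM over all genes, and divided between libraries. Genes needed at least 50 UMIs over both libraries, and a library at 0 took a floor of 3 counts. Intervals are 95% exact (Poisson for counts, Clopper-Pearson for shares, conditional binomial for ratios) and cover counting error only. With 1 library a side, no test was made and no p-value is given. For shares, cells were thinned to 3000 UMIs. Of the 24564 gene names of the files, 1116 with an Olfr name and no pseudogene suffix could be chosen by a cell, and all 1267 Olfr names were counted with the ORs in ratios. Doublets were predicted from simulated pairs of cells with 15 neighbours at 0.8% per 1000 cells and kept, since the gates have no step for them. Coding sequences came from the GENCODE annotation of GRCm38.

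Named genes were *Olfr17*, its 5 closest relatives, members of 30 gene lists, and in each gate the 10 genes other than ORs (in mature OSNs also 5 ORs) in each direction whose interval lay farthest from a ratio of 1, among genes of at least 100 UMIs. One gene that the rule names is not reported here. *Rpl14* is a member of the list of ribosomal protein genes, taken by symbol. The comparison, gates and gene lists were chosen with earlier results of these data known. Scripts were tested on simulated data and run with Python 3.11.15, NumPy 2.4.6, SciPy 1.17.1, pandas 2.3.3, scikit-learn 1.9.0, matplotlib 3.10.9 and Biopython 1.88.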

Additional observations from a re-analysis of the deposited data

Results flagged for a closer look

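Outside both OSN gates, 84 cells of the tetOP2 library (5.58%; 4.47% to 6.86%, exact binomial) held at least 10 *Olfr17* UMIs, against 0 of 1603 cells in the control. They stood out as a signal in cells that no comparison used. Their median was 37 *Olfr17* UMIs. Of the 84, 51 had 1 to 4 *Gap43* UMIs and fewer than 10 *Omp* UMIs. At least 10 *Omp* UMIs together with at least 5 *Cyp2g1* UMIs were found in 23. Predicted doublets were 10 of the 84, and 6 had neither *Omp* nor *Gap43*. *Gng8*, whose promoter drives the transactivator, was found in 88.1% of them and in 34.4% of the other cells outside the gates.

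Of 9583 genes other than ORs measured at both stages, 3 lay at least 2-fold apart in opposite directions in mature and immature OSNs, and the difference between stages was not tested. *Bpifa1*, a secreted protein of the airway, had a log2 ratio of -2.62 in mature and 2.41 in immature OSNs. *Reg3g*, an antimicrobial lectin, had -3.41 and 1.64, and *Tff2*, a trefoil factor of mucus, -3.78 and 2.63. One control cell gave 40.7%, 49.95% and 54.5% of the control UMIs of *Bpifa1*, *Reg3g* and *Tff2* in mature OSNs, and 1 tetOP2 cell gave 88.0%, 84.5% and 95.4% of the tetOP2 UMIs in immature OSNs. Without the 5 highest cells of each library all 3 were negative at both stages.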

How the results depend on the processing

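No paired analysis was possible because each side of the comparison is 1 library. With 1 library a side, no setting shows how far animals of a genotype differ. The *Olfr17* ratios stayed within their counting intervals under every alternative run. Of the gene list medians, 307 values under an alternative moved by less than their spread and 47 by more, and of the values of single genes 862 stayed, 187 moved and 8 turned sign. Counts of genes 2-fold apart followed the minimum number of UMIs: at 200, 20 and 1 UMIs, 44, 230 and 486 were higher and 158, 854 and 1459 lower in mature OSNs, and 21, 280 and 646 higher and 35, 515 and 1113 lower in immature OSNs. At 1.5-fold these were 267 and 926, and 276 and 540. Without the 5 cells of each library with the most UMIs of a gene, an alternative chosen after seeing the data, 67 were higher and 290 lower in mature OSNs and 58 higher in immature OSNs. The fall in mature OSNs lay in the ORs, from 88 to 3 higher and from 284 to 23 lower. An OR other than *Olfr17* was chosen by at most 4 tetOP2 and 6 control cells. Leaving out 5 cells thus removes most of its UMIs by design. Other genes went from 57 to 64 higher and from 236 to 267 lower. The minimum number of UMIs was not applied again, so genes with few UMIs left still counted, such as *Cytl1* with 0 against 11. Under that setting the counts therefore cannot show how many differences in other genes rest on few cells. That setting turned the immature log2 ratios of *Gpx6* (-0.70), *Bpifa1* (-0.54), *Tff2* (-2.60) and *Reg3g* (-0.65). Among genes at least 2-fold apart in mature OSNs, leaving out cells that chose *Olfr17* turned *Cabp2* (-3.11), *Avp* (0.084) and *Bpifb3* (-0.14). Leaving them out was also chosen after seeing the data. The wider gate for mature OSNs (at least 3 *Omp* UMIs, more *Omp* than *Gap43*) turned *Bpifb4* (-0.43). The causes were not tested.

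The share of mature OSNs with an assigned OR in the tetOP2 library was 95.2% and 92.7% with at least 3 and 10 UMIs, 88.7% in the wider gate and 96.3% thinned, and in the control 87.7%, 85.5% and, in the wider gate, 72.6%. An *Olfr17* UMI was found in 80.8% as deposited and 54.0% in the wider gate, and in 70.7% of immature OSNs as deposited. *Nqo1* was found in 34.7% of tetOP2 cells as deposited, 25.8% thinned and 21.7% in the wider gate. In control cells the shares were 44.7%, 34.5% and 24.9%. The median OR UMIs per cell of the tetOP2 library were 94 as deposited, 25 thinned and 20 in the wider gate, and 2 without *Olfr17* as deposited. In the control they were 89, 21 and 11, with or without *Olfr17*. The dorsoventral score was 0.219 in the wider gate (tetOP2), and 0.0636 as deposited and -0.0498 in the wider gate (control).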
